A study of Mus musculus with 12 samples.

Results

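Connexins are the membrane proteins that build gap junctions, and 5 connexin genes were followed here in mammary epithelial cells: Gja1 (connexin 43), Gja4 (connexin 37), Gjb2 (connexin 26), Gjb6 (connexin 30) and Gjc1 (connexin 45). Every probe set that the platform annotation assigns to exactly 1 of these symbols was taken, which gave 11 of the 45037 probe sets that are not array controls and 5 of 18193 named genes. Gja1 had 6 probe sets, Gjc1 2, and Gja4, Gjb2 and Gjb6 had 1 each. The genes were chosen by their measured differences between p190B and control arrays, so these differences are given as a description and nothing is tested with them.

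Gap junctions are channels between touching cells that pass ions and small molecules, and each is made of connexin subunits contributed by both cells. In the mammary gland connexin 43 is known from the myoepithelial cells and from stromal fibroblasts, whereas connexins 26 and 30 are known from luminal cells, with connexin 30 rising towards lactation. Connexin 37 is a connexin of endothelium, and connexin 45 is found in smooth muscle and other cells of the vessel wall.

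RNA came from primary mammary epithelial cells of female FVB/N mice, with 6 arrays per genotype. The p190B group carried both MMTV-rtTA, a doxycycline-responsive activator under a promoter active in mammary epithelium, and TetO-p190B-IRES-luciferase, from which the activator makes the GTPase-activating protein p190B (Arhgap5) together with luciferase. The control group carried MMTV-rtTA without the second transgene. In both groups doxycycline was given in chow at 2 g/kg, starting at 5 weeks of age and lasting 7 days, and cells were taken at 6 weeks, so controls share the activator and the drug but not the luciferase. The labels call the arrays biological replicates and do not say whether animals were pooled.

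The values are linear intensities of single-colour arrays, with array medians from 187.6 to 211.5. Arhgap5 itself did not pass on any of its 4 probe sets (log2 differences from −0.32 to 0.41, smallest limma adjusted p 0.258). The probe set at 0.41 ran from 831.1 to 1319 in control and from 1201 to 1635 in p190B, and the probe sets differed in direction. Luminal and basal epithelial markers were bright on all arrays, and markers of fibroblasts, endothelium, macrophages and lymphocytes were also measured. In such mixed preparations, fewer cells of a type and less RNA per cell cannot be told apart. The mean log2 value of the T and NK cell markers ran from 6.96 to 9.90 over control arrays and from 6.36 to 10.18 over p190B arrays.

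Connexin 43 signal was lower in p190B cells on 5 of the 6 Gja1 probe sets, by amounts that differed widely between them. The clearest was 1438650_x_at, which read 15421 at the lowest, 17089 at the median and 21592 at the highest over control arrays. Over p190B arrays it read 8139, 10825 and 14647, so every p190B array lay below every control array. Control arrays averaged 17524 ± 2141 and p190B arrays 11058 ± 2188 (SD, n = 6 each). The log2 difference was −0.68 (SE 0.12, 95% limma interval −0.93 to −0.43), which is 37.5% less signal.

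The brighter probe sets of Gja1 gave smaller differences. Probe set 1415800_at ranged from 23630 to 27658 over control arrays with a median of 26383. Its p190B arrays ranged from 21005 to 23839 with a median of 21950, and 5 of them lay below all control arrays. The groups met only through control replicate 6 and p190B replicate 6. Its log2 difference was −0.24 (SE 0.05, interval −0.34 to −0.13), or 15.2% less signal.

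For 1437992_x_at, control arrays ran from 23257 through a median of 25845 to 27066, and p190B arrays from 21986 through 23650 to 24952. Here 3 p190B arrays lay below all controls and 4 controls above all p190B arrays, and the log2 difference was −0.10 (SE 0.05, interval −0.21 to −0.0008). Probe set 1438945_x_at ran from 14492 to 18003 in control (median 15544) and from 10888 to 15751 in p190B (median 12541). It had 4 p190B arrays below all controls and a log2 difference of −0.28 (SE 0.08, interval −0.46 to −0.10).

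The dimmer Gja1 probe sets scattered more. Probe set 1415801_at ran from 3356 to 4819 in control (median 3966) and from 1845 to 4379 in p190B (median 3339), a log2 difference of −0.42 (SE 0.18, interval −0.80 to −0.04). Its lowest values were those of p190B replicates 3 and 1, at 1845 and 2301. The difference was −0.28 without p190B replicate 3 and −0.15 without both. Probe set 1438973_x_at was higher in p190B, at 0.36 (SE 0.48, interval −0.68 to 1.39). It spanned 80 to 720.2 over control arrays and 107.9 to 759.9 over p190B arrays, with replicate 6 lowest in both groups. Its difference was −0.02 without control replicate 6, 0.73 without p190B replicate 6, 0.57 without control replicate 2 and 0.20 without p190B replicate 1. Once the Actb or the Gapdh 3′ over 5′ ratio was added to the model it was 0.02 or −0.53.

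**Figure D1:**
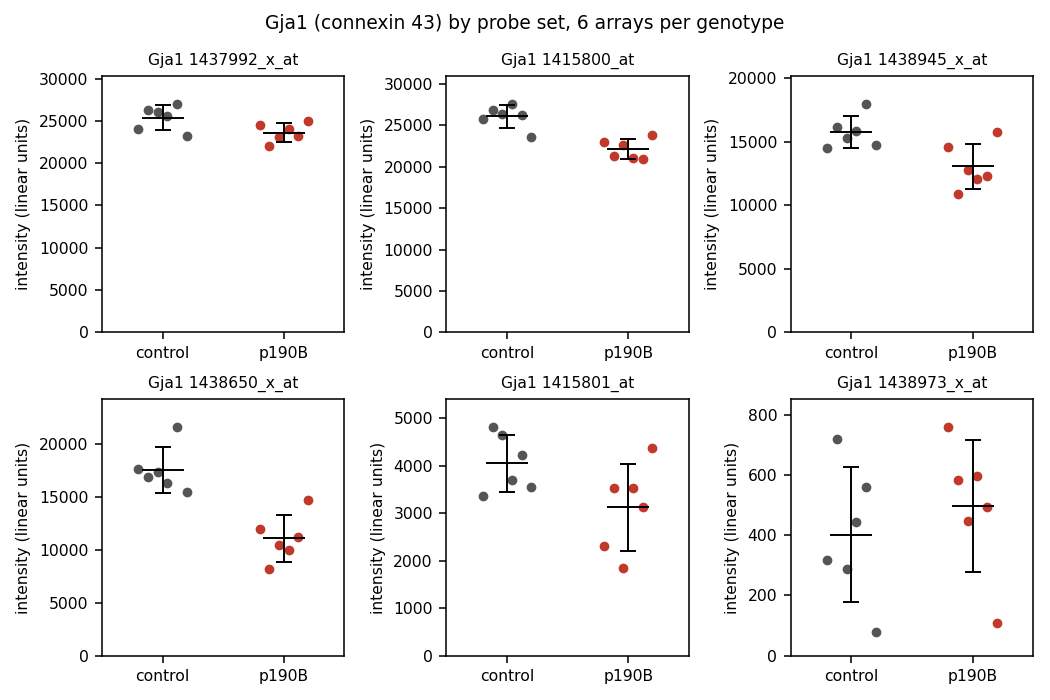
Intensity (linear units, vertical axis from 0) of the 6 Gja1 probe sets on each control (grey) and p190B (red) array, with the mean and SD of the 6 arrays in black. Only 1438650_x_at separates the genotypes fully, with p190B arrays up to 14647 and control arrays from 15421.

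Of the 10 connexin probe sets bright enough for the fit over all probe sets, 0 reached a limma adjusted p at or below 0.05, beside 0.037% of all 27022 tested (0.0333% lower and 0.0037% higher). The mean was lower in p190B for 9 of the 10, beside 45.1% of all tested. At an unadjusted limma p under 0.05 there were 6, all lower in p190B, beside 9.32% of all tested in either direction and 4.81% lower. Of these 6, 5 were probe sets of Gja1 and 1 of Gjc1, and the 10 probe sets read only 4 genes. Groups did not overlap for 1 connexin probe set, Gja1 1438650_x_at, beside 0.877% of all tested, 0.555% lower and 0.322% higher. The 10 had a median log2 difference of −0.21, and all 27022 had one of 0.02. Because the genes were chosen with this contrast known, nothing is read from these counts. The count was 1, from the same Gja1 probe set, with quantile normalisation, with lymphocyte markers as a covariate, without p190B replicate 6 and at an adjusted p of 0.10.

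The Gja1 probe sets fell into those that followed each other over the arrays and those that did not. Among 1437992_x_at, 1415800_at, 1438945_x_at and 1438650_x_at, Pearson's r over the 12 arrays ran from 0.802 to 0.933 over 6 pairs. After the genotype means were subtracted it ran from 0.556 to 0.904, and within control alone from 0.290 (1415800_at with 1438650_x_at) to 0.838. Probe set 1415801_at gave 0.459 to 0.566 with those 4 as measured, and 0.06 to 0.36 after subtraction. For 1438973_x_at the values with the other 5 ran from −0.27 to 0.11. Within control arrays its r with the other 5 was 0.536 to 0.874, and within p190B arrays −0.68 to −0.45. Replicate 6 stood at the extreme in both groups. On p190B replicate 6 this set was at its p190B lowest, 107.9, and each of the other 5 at its p190B highest. On control replicate 6 it was at its control lowest, 80, as were 1437992_x_at, 1415800_at and 1438650_x_at. The within-genotype values were not computed without these arrays. Over all 15 pairs the median r was 0.534, and 0.292 after subtraction. These are descriptions of probe sets of 1 gene on the same arrays, with no test.

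Agreement in order over arrays did not mean agreement in size. The log2 ratio of 1438650_x_at to 1415800_at on the same array was −0.58 ± 0.16 on control and −1.02 ± 0.23 on p190B arrays (SD, n = 6 each), which differ by −0.44. The ratio ran from −0.76 to −0.29 over control arrays and from −1.38 to −0.70 over p190B arrays, so the groups overlapped slightly. For 1437992_x_at against 1415800_at the ratio was −0.04 ± 0.05 in control and 0.10 ± 0.06 in p190B. The suffix x_at marks sets in which some probes also match other transcripts, and 4 of the 6 Gja1 sets carry it. Which part of the Gja1 transcript each set reads was not analysed here.

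Measures of RNA quality differed between genotypes and are given beside the Gja1 values. Actb control probe sets gave a log2 3′ over 5′ ratio of 0.29 ± 0.03 on control and 0.40 ± 0.11 on p190B arrays, and those of Gapdh gave −0.49 ± 0.02 and −0.40 ± 0.06 (SD, n = 6 each). The Actb ratio was highest on p190B replicates 1 and 3, at 0.48 and 0.59, which were the arrays lowest for 1415801_at. With the Actb or the Gapdh ratio in the model the log2 difference of 1415801_at was −0.046 or −0.032. That of 1438650_x_at was −0.66 (SE 0.15) or −0.61 (SE 0.19), that of 1438945_x_at −0.30 with either, and that of 1415800_at −0.27 or −0.30.

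Relations of the 10 tested connexin probe sets with the 2 ratios were examined after the values had been seen, 20 in all, and 0 passed after Benjamini-Hochberg adjustment. The strongest was that of Gja1 1415801_at with the Actb ratio, with Pearson's r = −0.844 over 12 arrays (two-sided permutation p = 0.00383, adjusted p = 0.0766) and Spearman's rho = −0.483 (permutation p = 0.115). It rested on p190B replicates 1 and 3, without which r was −0.0656. Within genotypes r was 0.503 in control and −0.956 in p190B. It passed without control replicate 2 (−0.915) and without control replicate 6 (−0.859), and was −0.658 without p190B replicate 3. For 1438650_x_at and the Actb ratio r was −0.530 (permutation p = 0.0731, adjusted p = 0.244), and −0.414 within control and −0.007 within p190B. With the Gapdh ratio the same probe set gave r = −0.694 (permutation p = 0.0126, adjusted p = 0.107) and rho = −0.671 (permutation p = 0.0205). That r was −0.799 without the 2 arrays farthest from the median Gapdh ratio, 0.267 within control and −0.206 within p190B. The signal of 1438650_x_at and both ratios differed between genotypes, and the genes were chosen by that contrast. An r over all 12 arrays therefore holds the genotype difference, and its p does not test a relation within genotypes.

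**Figure D2:**
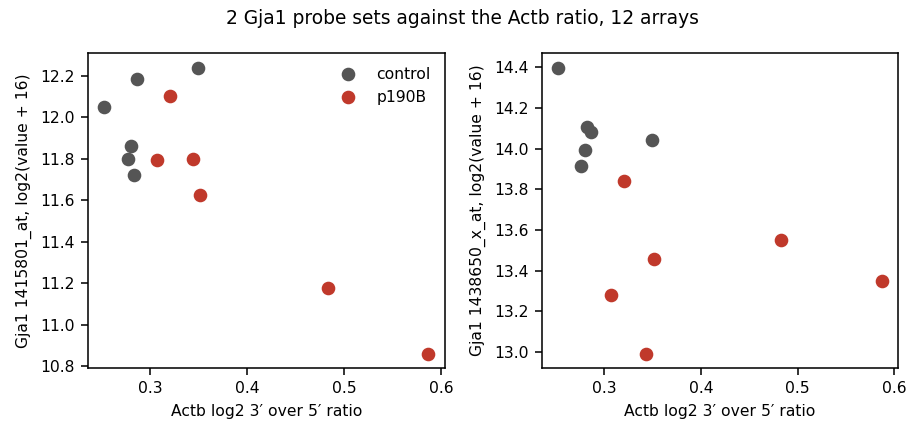
Gja1 probe sets 1415801_at (left) and 1438650_x_at (right), as log2(value + 16), against the log2 3′ over 5′ ratio of the Actb control probe sets, 1 point per array, control in grey and p190B in red. The 2 arrays farthest right, p190B replicates 1 and 3 at 0.48 and 0.59, are the lowest for 1415801_at but not for 1438650_x_at.

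Among the other connexins, Gjc1, the connexin 45 gene, was lower in p190B on both probe sets, and its groups overlapped on both. Probe set 1449094_at ran from 1109 to 1863 in control (median 1730) and from 1270 to 1778 in p190B (median 1347). The p190B arrays other than replicate 6 lay close together, up to 1380, and 5 of the 6 control arrays lay above that. The log2 difference was −0.19 (SE 0.13, interval −0.46 to 0.08), and −0.29 without control replicate 6. Probe set 1447787_x_at ran from 328.2 to 659.5 in control and from 288.2 to 517.9 in p190B, a log2 difference of −0.41 (SE 0.18, interval −0.79 to −0.03).

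Gja4, the connexin of endothelium, ran from 979.1 to 1519 in control (median 1231) and from 900.3 to 1204 in p190B (median 1154). The groups overlapped and the log2 difference was −0.14 (SE 0.11, interval −0.38 to 0.11). It was −0.07 without control replicate 5, −0.08 without p190B replicate 1, and 0.02 once the Actb or the Gapdh ratio was added to the model. Gjb2, a luminal connexin, ran from 1010 to 1896 in control (median 1268) and from 1126 to 1741 in p190B (median 1281), a log2 difference of −0.006 (SE 0.15, interval −0.33 to 0.31). With single arrays left out it ran from −0.08 to 0.10, so its sign turned.

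Gjb6, the connexin 30 gene, stayed below the level of about 101 units needed for the fit on all 12 arrays. It ran from 39 to 69.6 in control and from 28.1 to 94.9 in p190B. In a fit without the filter its log2 difference was 0.07 (SE 0.23, interval −0.43 to 0.56). Gjb2 and Gjb6 are neighbours in the mouse genome, next to Gja3 on the other side of Gjb2.

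**Figure D3:**
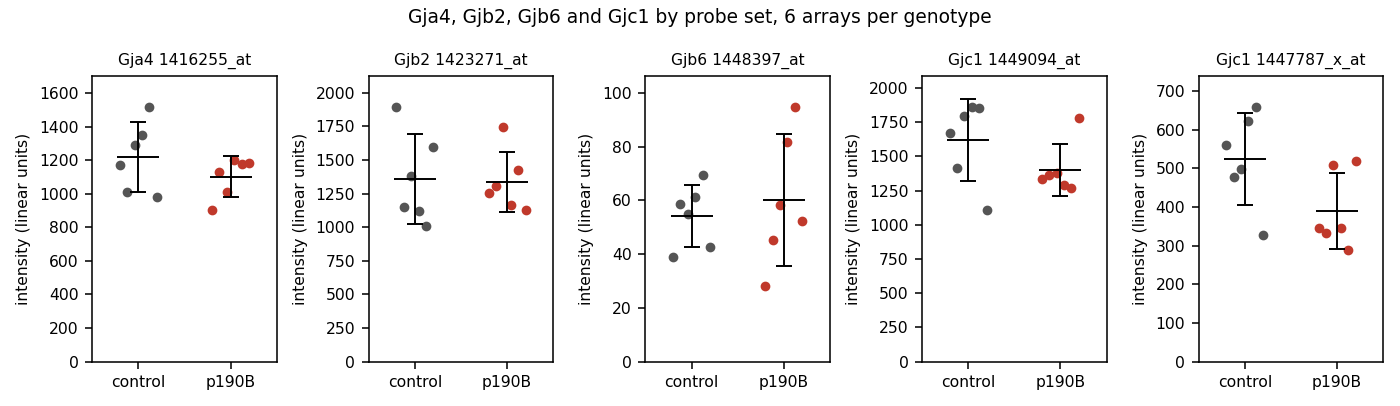
Intensity (linear units, vertical axes from 0) of the Gja4, Gjb2, Gjb6 and Gjc1 probe sets on each control (grey) and p190B (red) array, with the mean and SD of 6 arrays in black. Groups overlap in every panel, and Gjc1 1449094_at has 5 p190B arrays at or below 1380 with replicate 6 at 1778.

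**Figure D4:**
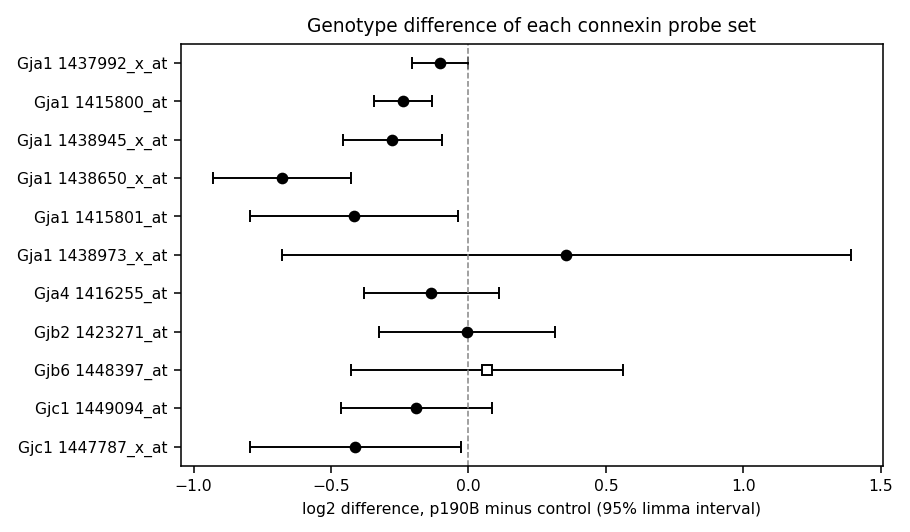
Log2 difference of each connexin probe set, p190B minus control, on the horizontal axis, with its 95% limma interval, the dashed line marking 0. Filled circles passed the filter on dim probe sets and the open square (Gjb6) did not. Gja1 estimates run from −0.68 to 0.36.

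Gja4 and Gjc1, each by its brightest probe set, varied between preparations with markers of other cell types. Gja4 was lower where luminal epithelial markers (10 genes, such as Krt8 and Epcam) were higher, with Pearson's r = −0.860 over 12 arrays (two-sided permutation p = 0.00056, adjusted p = 0.0314) and rho = −0.832 (permutation p = 0.00134). Within genotypes r was −0.905 in control and −0.790 in p190B. Without the 2 arrays farthest from the median of the markers it was −0.848 and no longer passed. Without control replicate 6, p190B replicate 1 or p190B replicate 2 the relation no longer passed, with r of −0.842, −0.855 and −0.860.

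Gjc1, read by 1449094_at, followed the endothelial markers (10 genes, such as Pecam1 and Cdh5) with r = 0.812 (permutation p = 0.00211, adjusted p = 0.0394) and rho = 0.818 (permutation p = 0.00157). This r was 0.959 within control, 0.623 within p190B and, no longer passing, 0.787 without the 2 arrays farthest from the median of the markers. With the luminal markers Gjc1 gave r = −0.803 (permutation p = 0.00208, adjusted p = 0.0394) and rho = −0.713 (permutation p = 0.0115). This one was −0.894 within control, −0.585 within p190B and, no longer passing, −0.678 without the 2 arrays farthest from the median of the markers. Both Gjc1 relations stopped passing without control replicate 1, 3, 4, 5 or 6 or p190B replicate 1, 2 or 6, with r from 0.738 to 0.812 for the endothelial and from −0.818 to −0.744 for the luminal markers. Read by 1447787_x_at, Gjc1 gave 0.697 and −0.576, neither of which passed.

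Gja4 with the endothelial markers gave r = 0.746 (permutation p = 0.00494, adjusted p = 0.0553), which did not pass, and rho = 0.846 (permutation p = 0.00096, adjusted p = 0.0293), which did. Pearson's r was 0.937 within control but 0.403 within p190B. It was 0.670 without the 2 arrays farthest from the median of the markers. Control replicates 6 and 2 had the lowest endothelial means among all arrays, 11.47 and 11.56, and Gja4 values of 979.1 and 1008. Gja4 was highest on control replicate 5, at 1519, with an endothelial mean of 12.15. Against this order, p190B replicate 3 had an endothelial mean of 12.06 and a Gja4 value of 1012. The sum of endothelial marker intensities ran from 36070 to 55378 over control arrays and from 38057 to 56154 over p190B arrays, so the groups covered nearly the same range. Luminal sums ran from 177019 to 231510 and from 197804 to 219866, with 2 of 10 markers lower and 8 higher in p190B and 0 passing. Of the 10 endothelial markers 6 were lower and 4 higher in p190B, 0 passed, and no marker of either list was at zero on any array.

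In all, 4 connexin genes (each by its brightest probe set) were set against 14 marker lists, and 3 of the 56 relations passed after Benjamini-Hochberg adjustment. By Spearman's rho 4 passed: Gja4 with luminal and endothelial markers, and Gjc1 with endothelial and with luminal progenitor and alveolar markers (rho = −0.790, adjusted permutation p = 0.0442). With all arrays scaled to the same median 0 of 56 passed, and the 3 values were −0.654, 0.815 and −0.548 in the order above. Every array carries 1 overall scaling, which all probe sets on it share.

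Gja1 and Gjb2 showed no such relation past the threshold. For Gja1, read by 1437992_x_at, the strongest of the 14 was with Schwann cell markers, at r = 0.562 (permutation p = 0.0576, adjusted p = 0.293). Its r with basal and myoepithelial markers was 0.251 (permutation p = 0.431) and with fibroblast markers 0.227 (permutation p = 0.493). Within control the fibroblast value was 0.851 and within p190B −0.286. The basal and myoepithelial value was −0.059 within control and 0.740 within p190B. For Gjb2 the strongest was also with Schwann cell markers, at −0.611 (permutation p = 0.0350, adjusted p = 0.196), and its r with luminal markers was 0.307 (permutation p = 0.330).

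Basal and myoepithelial markers, the cells in which connexin 43 is best known, ran from 12.40 to 12.74 (mean log2) over control arrays and from 12.43 to 12.78 over p190B arrays. Their mean difference was −0.003, with 7 of 10 markers lower and 3 higher and 0 passing. Fibroblast markers ran from 13.17 to 13.83 in control and from 13.51 to 13.86 in p190B, a mean difference of 0.10, with 2 of 9 lower and 7 higher. Epidermal keratinocyte markers, of which 3 of 8 were bright enough, ran from 9.22 to 11.53 in control and from 9.23 to 9.65 in p190B. Their mean difference was −0.58, with 3 of 3 lower and 0 passing, and the r of Gja1 1437992_x_at with them was 0.297 (permutation p = 0.357). The part of any of these lists in the Gja1 differences was not tested.

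**Figure D5:**
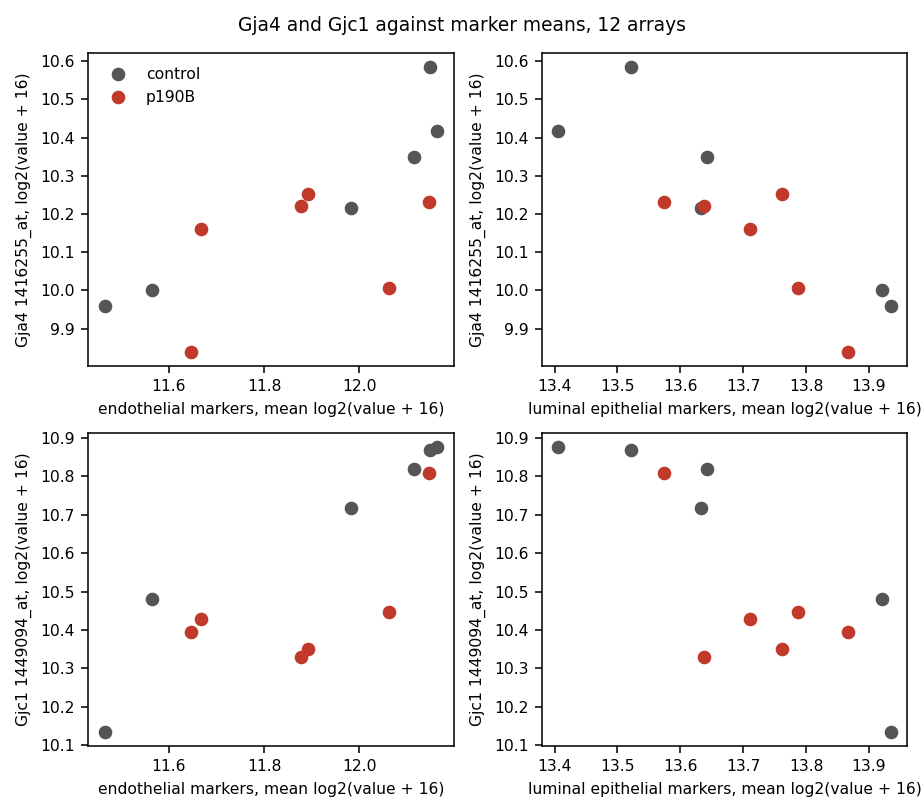
Gja4 1416255_at (top) and Gjc1 1449094_at (bottom) as log2(value + 16) against the mean log2 value of endothelial (left) and luminal epithelial (right) markers, 1 point per array, control in grey and p190B in red. Both genes lie higher where endothelial markers are higher (r = 0.746 and 0.812) and lower where luminal markers are higher (r = −0.860 and −0.803).

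The connexins were also compared with each other over the arrays, a comparison of 6 pairs chosen after the values had been seen. Each was read by its brightest probe set only, which for Gja1 was 1437992_x_at. Gja4 and Gjc1 moved together, with r = 0.731 (permutation p = 0.00657, adjusted p = 0.0394) and rho = 0.657 (permutation p = 0.0230). It was the only pair to pass by r, whereas by rho it passed together with Gja1 and Gjc1 (0.699) and Gja1 and Gjb2 (−0.657), each at an adjusted permutation p of 0.0480. The r of Gja4 and Gjc1 was 0.892 within control, 0.201 within p190B and 0.709 without the 2 arrays farthest from the median of Gja4. It did not pass without control replicate 1, 3, 4, 5 or 6 or p190B replicate 3, at 0.672 to 0.738.

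Gja1 and Gjc1 gave r = 0.678 (permutation p = 0.0177, adjusted p = 0.0530), with 0.668 within control and 0.475 within p190B. This pair passed without control replicate 2 (0.768), without p190B replicate 2 (0.713) and with quantile normalisation (0.725). Gja1 and Gjb2 ran against each other, with r = −0.580 (permutation p = 0.0487, adjusted p = 0.0973), and −0.841 within control and −0.547 within p190B. After the genotype means were subtracted that r was −0.736, which passed, as did −0.706 without p190B replicate 2. The same subtraction lowered r to 0.599 for Gja1 and Gjc1 and to 0.691 for Gja4 and Gjc1.

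Genes were ranked by how closely they followed each connexin over the 12 arrays after the genotype means were subtracted, among 12769 genes read by their brightest probe set. Each connexin was also read by its brightest probe set only, 1437992_x_at for Gja1. Such a ranking finds high values among many genes with few arrays and is a description only. Nearest to Gja1 stood Adamts1, a secreted metalloprotease, at r = 0.942, then Aqr at 0.916, 9430038I01Rik at 0.887, Mcfd2 at 0.878 and Rasl11b at 0.876. Before subtraction these were 0.818, 0.546, 0.365, 0.843 and 0.814 in the same order. Nearest to Gjc1 stood the collagen VI and V chains Col6a3 and Col5a3, at 0.953 and 0.950, and the endothelial surface protein Cd93, at 0.944, and these were 0.561, 0.770 and 0.953 before subtraction. Gja4 was followed by Fancb at 0.963, Lix1l at 0.956 and Exosc7 at 0.948, which before subtraction were 0.939, 0.840 and 0.566. For Gjb2 the nearest were Tsc1 at 0.895, Gpatch2l at 0.892 and Mbtd1 at 0.885, which before subtraction were 0.895, 0.892 and 0.876.

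Other connexins and the related pannexins were mostly too dim to test. Of 18 such genes 12 had a probe set of their own, and 2 of these passed the filter: Gjb1 (connexin 32, a luminal connexin) and the pannexin channel gene Panx1. Panx1 averaged 939.8 ± 156 on control and 948.1 ± 143 on p190B arrays (SD, n = 6 each), or 0.01 on the log2 scale (SE 0.12, limma adjusted p 0.985). Gjb1 gave 0.09 (SE 0.14, limma adjusted p 0.902) on 1448766_at and −0.36 (SE 0.29, limma adjusted p 0.757) on 1448767_s_at.

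Genes whose proteins bind or modify connexin 43 did not pass either. Of 30 listed, 27 were measured, with 64 probe sets tested. By limma 0 of the 64 had an adjusted p at or below 0.05. An unadjusted limma p under 0.05 was reached by 9, 7 of them lower, beside 9.32% of all tested in either direction and 4.81% lower. The 7 included Ywhaq 1436846_x_at (−0.49), 1437608_x_at (−0.34) and 1460590_s_at (−0.24), whereas other Ywhaq probe sets ran from −0.07 to 0.05. Differences were negative for 28 and positive for 36, with a median of 0.0207, beside 0.0172 over all tested probe sets.

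By its brightest probe set, the smallest p in that list belonged to Cdh1, E-cadherin of the adherens junction, at −0.48 (SE 0.13, limma adjusted p 0.233). It passed with lymphocyte markers as a covariate. Csnk1d, a casein kinase that phosphorylates connexin 43, gave 0.18 (SE 0.07, limma adjusted p 0.432) on its brightest probe set and −0.05 to 0.11 on its 4 others. The tubulin gene Tuba1a gave −0.16 (SE 0.07, limma adjusted p 0.465). Tjp1, the scaffold ZO-1 that binds the tail of connexin 43, gave −0.09 (SE 0.08, limma adjusted p 0.781), a gene picked after its value was seen.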

How the data were processed

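Labelled cRNA of each sample was run on 1 single-colour Affymetrix array, per the labels' protocols. The deposited intensity values, 1 per probe set and array for 45101 probe sets on 12 arrays, come from MAS5, per the submitters' processing notes. No source used here gives its version or the scaling target. Values ran from 0.1 to 64224.3. The number of arrays, 6 per genotype, limits the precision.

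Groups came from the sample titles. Of 45037 non-control probe sets, 34945 had 1 symbol in the platform annotation, 932 several and 9160 none. Symbols were set against RefSeq (GRCm38.p6) by Entrez ID, which matched 34754 and changed 0. The array's build is not given, so no coordinates are printed.

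Intensities were used as log2(value + 16), on which folds of dim probe sets are understated. The 27022 probe sets at or above the 40th percentile of mean log2 value, about 101 units, entered 1 limma model (version 3.58.1, R 4.3.3) of genotype, with a trended prior variance and two-sided p-values. These were adjusted over all 27022 by Benjamini-Hochberg, with a threshold of 0.05. Marker means are over the brightest probe set of each marker above the filter. Correlations over arrays carry two-sided permutation p-values from 100000 resamples, computed in Python 3.11.15, with Benjamini-Hochberg adjustment over each family. Figures were drawn with matplotlib 3.10.9. The fit and the correlation were tested on simulated data.

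The genes, the lists and the other settings (pseudocounts, filters, normalisations, spread models, covariates, replicate block and left-out arrays) were chosen with earlier results of these data known. Named genes were all probe sets of the 5 connexins, the genes past the threshold or with the 3 smallest unadjusted p of each further list, the 5 genes most like Gja1 and the 3 most like each other connexin, and the relations with marker lists that passed or were strongest for a gene. No batch is given in the labels.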

Additional observations from a re-analysis of the deposited data

Results flagged for a closer look

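Of 54 groups of 6 arrays examined for a value far from the others (connexin probe sets, marker means and 3′ over 5′ ratios), 3 held one, and chance gives about 1 in 20. Gja1 1438650_x_at read 21592 on control replicate 5, above 15421 to 17636 on the other control arrays. Without that array its log2 difference was −0.62. Gjc1 1449094_at read 1778 on p190B replicate 6, above 1270 to 1380 on the other p190B arrays, and without it the log2 difference was −0.26. For Actb the log2 3′ over 5′ ratio was 0.35 on control replicate 2, above 0.25 to 0.29 on the other control arrays.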

How the results depend on the processing

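Log2 differences of the 10 tested connexin probe sets moved by less than the spread between replicates under the settings run, with 1 exception under 2 of them (Gjb6 has only the value without a filter). Gja1 1415801_at, at −0.42, was −0.046 with the Actb ratio and −0.032 with that of Gapdh in the model. It was −0.53 to −0.28 with any single array left out and −0.15 without p190B replicates 1 and 3. Left-out arrays gave −0.76 to −0.59 for 1438650_x_at and −0.27 to −0.22 for 1415800_at. The number of connexin probe sets past the threshold, 0, was 1 with quantile normalisation, lymphocyte markers as a covariate or an adjusted p of 0.10, and 0 to 1 with single arrays left out. That of other gap junction and partner probe sets, 0, was 1 with lymphocyte markers as a covariate (Cdh1).

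Over all tested probe sets the count, 10, was 19 with array weights, 17 with a filter at the 60th percentile, 5 without a filter, 25 with lymphocyte markers, 1 with the Actb ratio and 0 with that of Gapdh in the model. It was 31 with quantile normalisation, 4 with equal medians, 3 without the trend, 5 without p190B replicates 1 and 3, 24 at an adjusted p of 0.10, and 4 to 9 with single arrays left out. Deviations of same-numbered arrays correlated from −0.287 to 0.408, above 0.1 in 1 of 6 pairs. So few pairs cannot decide whether replicate numbers pair the arrays, and the arrays were treated as unpaired. With the replicate number as a block the count was 0, that of connexin probe sets 0, and the log2 difference of Gja1 1438650_x_at −0.68. The count of marker relations, 3 of 56, was 0 with equal medians, 1 with quantile normalisation and 5 after subtracting genotype means. It was 0 without the 2 arrays farthest from the median of the markers, 1 with Gjc1 read by 1447787_x_at, and 0 to 9 with single arrays left out. The causes were not tested.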
